A study of Mus musculus with 12 samples.

Results

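Histone H1.0 knockdown and TGF-β were combined in cultured mouse cardiac fibroblasts, and the comparison described here is their interaction: the TGF-β response of knockdown cells less the TGF-β response of scramble cells, for every gene measured. The members were chosen by that contrast alone, so all 12 RNA-seq samples of the series took part, and 118 of 18028 genes tested passed (adjusted p under 0.01, edgeR's quasi-likelihood test with the replicate number as a block). The cells were adult cardiac fibroblasts of wild type C57BL/6J mice, female and male, grown as primary cultures until partly confluent and kept in low serum before treatment. The 4 groups of 3 samples were H1.0 siRNA with TGF-β, H1.0 siRNA with vehicle, scramble siRNA with TGF-β and scramble siRNA with vehicle, and TGF-β was given at 10 ng/ml. A short interfering RNA lowers its target for some days in a dish and leaves part of it in place, so the knockdown groups are cells with reduced H1.0 and not cells without the gene. The labels do not say whether samples with the same replicate number came from the same isolation, and the p-values measure the spread between these samples.

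Linker histones bind the nucleosome where DNA enters and leaves it and help to fold chromatin, and H1.0 is the linker histone typical of cells that divide little. TGF-β binds a receptor kinase that activates SMAD transcription factors, and in fibroblasts it is the classic signal for conversion to the contractile, matrix-producing myofibroblast. An interaction tests whether the response to the cytokine differs between cells with and without the knockdown, which is another question than whether the level of a gene differs.

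Of the 118 genes, 74 had a higher TGF-β response in knockdown cells and 44 a lower one. These are 0.655%, 0.41% and 0.244% of the genes tested for any, a higher and a lower response. The log2 difference between the responses ran from −4.75 (Plekhd1, with 2.33 to 7.71 normalised counts in knockdown cells with TGF-β and 51.1 to 85.8 in scramble cells with TGF-β, named here for its value alone) to 3.38 (Syn2), with a median of 0.88 for the higher and −0.90 for the lower genes, against a median of 0.02 for all genes tested. In all 118 genes each of the 3 replicate numbers gave a difference of the same sign as the fit. The genes were called from these same samples with the number as a block, so the equal signs add no evidence. Read through the responses in each arm, 36 genes passed in both arms with a larger response in knockdown cells, 5 passed in both with a smaller one, 11 passed in both in opposite directions, 25 passed in knockdown cells only and 41 in scramble cells only. The lower genes were mostly of the last kind: 30 of 44 responded in scramble cells only, with a median log2 fold change of −0.06 in knockdown cells and 0.86 in scramble cells. The most frequent kind among the higher genes was a rise with TGF-β in both arms that was larger in knockdown cells, with 35 of 74 genes, and a median log2 fold change of 2.08 in knockdown cells and 1.07 in scramble cells.

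**Figure D1:**
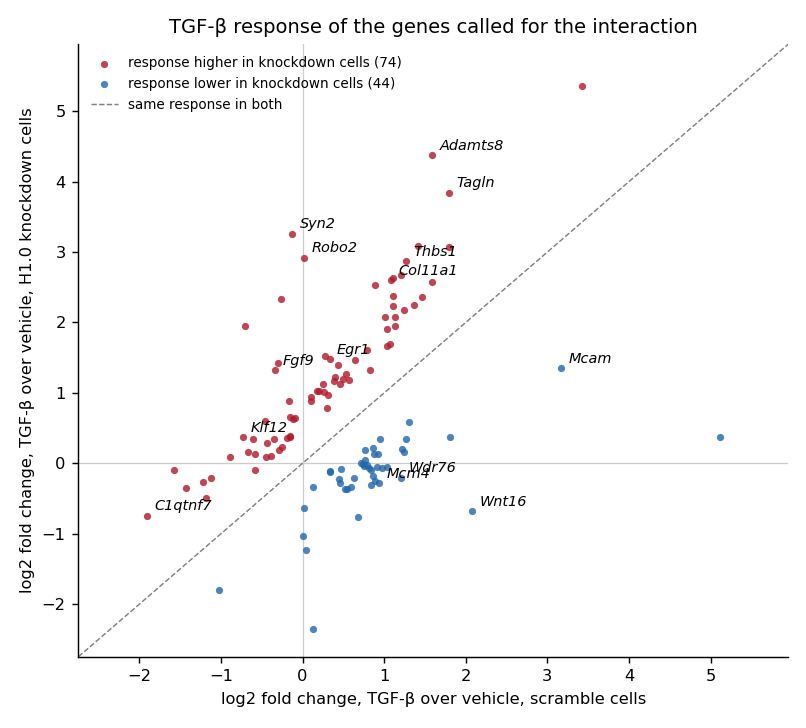
TGF-β response of the 118 genes that passed the interaction test, as the log2 fold change of TGF-β over vehicle in H1.0 knockdown cells (vertical axis) and in scramble cells (horizontal axis), 1 point per gene. Of the 74 genes above the dashed line of equal response, 35 rose in both arms and more in knockdown cells, while others lie near or below 0 on the vertical axis. Most of the 44 genes below the line lie near 0 in knockdown cells and above 0 in scramble cells.

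The number of genes depended strongly on the replicate block. Without it the same test passed 8 genes, 6 higher (Syn2, Rapgef3, Tagln, Robo2, Klf12 and Palm2) and 2 lower (Mcm4 and Wdr76), all of them among the 118. The other 52 of the 59 genes named below that passed had adjusted p-values from 0.0163 to 0.429 in that fit, with the same sign. With an offset for transcript length 44 genes passed, 32 higher and 12 lower, and DESeq2 with the block passed 590, 298 higher and 292 lower. Single samples moved the count as well. Among scramble cells with TGF-β, leaving out replicate 1, 2 or 3 gave 27, 11 and 17 genes, and among scramble cells with vehicle 21, 15 and 186. Among knockdown cells with TGF-β it gave 25, 28 and 85 genes, and with vehicle 32, 30 and 125. Of the 59 named genes that passed, 8 kept their call in all 12 of these fits and 51 lost it in at least 1. All 118 genes kept their sign in every alternative. Each alternative used the same samples or a part of them, so the kept sign follows largely from the selection. Genes on either side of the threshold lay close together: the weakest gene inside had an adjusted p of 0.00988 and the strongest outside 0.0102, and 3308 genes had an unadjusted p under 0.05, 1706 higher and 1602 lower.

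H1f0, the gene of H1.0, had a normalised count (TMM, scaled to the mean sample total) of 843, 876 and 510.3 in knockdown cells with TGF-β and 980.1, 1075 and 600.5 in knockdown cells with vehicle, against 2832, 2922 and 2807 in scramble cells with TGF-β and 2515, 3033 and 2648 in scramble cells with vehicle. Knockdown and scramble samples did not overlap, and replicate 3 was the lowest of both knockdown groups. The siRNA changed H1f0 by −1.98 on the log2 scale with TGF-β and by −1.66 with vehicle, and the difference of the TGF-β responses was −0.31 (SE 0.22), adjusted p = 0.493. Col1a1, a fibroblast gene, was high in every sample, at 213423 to 365827 normalised counts. Pdgfra, another fibroblast gene, was lower with TGF-β in both arms. It had 2304 to 5420 in knockdown cells with TGF-β and 13760 to 17711 with vehicle. In scramble cells it had 4801 to 7077 with TGF-β and 13454 to 19101 with vehicle. Pdgfra did not pass the interaction test (log2 difference −0.63, SE 0.18, adjusted p = 0.0946). Summed counts of 11 cardiomyocyte genes were 207 to 362 in knockdown and 1815 to 2692 in scramble samples, a difference carried by Tnnt2 (147 to 269.9 in knockdown against 1696 to 2444 in scramble samples). Macrophage genes (24 markers) summed to 16003 to 24488 in knockdown cells with TGF-β and 28446 to 30335 with vehicle, against 22440.0 to 24532 in scramble cells with TGF-β and 30207 to 33579 with vehicle, and none of the 24 passed the interaction test. Endothelial genes (12 markers) summed to 1840.4 to 2272 in knockdown and 2351 to 3880 in scramble samples, and none passed either. The part of such cells in the differences below was not tested. Depth moved with the groups too: the 3 samples of knockdown cells with TGF-β held 36.2 to 36.3 M reads and the other 9 held 19.9 to 35.5 M. When all samples were thinned to the lowest total, 138 genes passed, 112 of them among the 118.

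Of the 42 gene lists examined, that of S phase held the most of the 44 lower genes. Of its 79 genes 18 had a lower response in knockdown cells and none a higher one, against 0.244% lower and 0.41% higher of all genes tested. Of the 79, 75 had a log2 difference below 0 (median −0.79). TGF-β raised 6 and lowered 4 of the 79 in knockdown cells, where 14.2% of all genes tested were raised and 12.6% lowered. In scramble cells it raised 64 and lowered none, against 15.4% raised and 13% lowered of all genes. The siRNA lowered 69 of them in the presence of TGF-β and raised 3, and lowered 39 and raised 5 with vehicle. Over all genes the siRNA raised 17.6% and lowered 16% with TGF-β, and raised 17.4% and lowered 16.2% with vehicle. These 4 comparisons use the same samples as the interaction, so they describe it and do not add evidence. In bulk RNA, fewer cells in S phase and less of these transcripts per cell cannot be told apart. Leaving out replicate 1, 2 or 3 gave 4, 1 and 3 calls among scramble cells with TGF-β, 4, 3 and 18 among scramble cells with vehicle, 3, 4 and 13 among knockdown cells with TGF-β and 6, 5 and 18 among knockdown cells with vehicle. The count was 2 without the block and 8 with the length offset. Without replicate 1 of every group it was 0, without replicate 2 also 0, and without replicate 3 it was 28. The median of the list stayed between −0.92 and −0.70 in all 26 alternatives.

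The MCM proteins form the helicase that unwinds DNA at replication forks. Of 14 genes of the helicase and its activators 3 passed, all lower, against 0.244% of all genes tested. Mcm4 (chr16:15623897-15637400, GRCm38) had counts of 667, 661 and 725 in knockdown cells with TGF-β and 889, 868 and 744 with vehicle, against 2616, 2643 and 2922 in scramble cells with TGF-β and 1495, 1243 and 1525 with vehicle. TGF-β samples were above vehicle samples in scramble cells and below them in knockdown cells, in both with no overlap, although the change in knockdown cells did not pass. On the log2 scale Mcm4 changed with TGF-β by −0.28 in knockdown cells and 0.94 in scramble cells, a difference of −1.22 (SE 0.13, adjusted p = 0.00208). Mcm3 had 363, 333 and 444 in knockdown cells with TGF-β and 474, 346 and 370.5 with vehicle, against 1869.8, 1856 and 2053 in scramble cells with TGF-β and 953, 859 and 1006 with vehicle. Its knockdown groups overlapped and its scramble groups did not, and the difference of the responses was −1.10 (SE 0.14, adjusted p = 0.00467). Mcm2 behaved alike, with a log2 fold change of −0.06 in knockdown and 0.98 in scramble cells (difference −1.04, SE 0.15, adjusted p = 0.00739). Without scramble TGF-β replicate 2 the adjusted p rose to 0.0129 for Mcm4 and 0.0219 for Mcm3, and without scramble vehicle replicate 2 to 0.0322 for Mcm2.

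Polymerase and fork proteins gave 6 calls of 25 genes, all lower, against 0.244% of all genes tested. Pcna, the sliding clamp that holds the polymerase on DNA, had counts of 1141, 1134 and 1168 in knockdown cells with TGF-β and 1244, 1087 and 1173 with vehicle, against 2932, 2992 and 3333 in scramble cells with TGF-β and 1641, 1729 and 1976 with vehicle. In knockdown cells the TGF-β samples lay inside the range of the vehicle samples, and in scramble cells they lay well above it. The log2 fold change was −0.02 in knockdown and 0.79 in scramble cells (difference −0.82, SE 0.09, adjusted p = 0.00347). Rpa1 and Rpa2 encode subunits of the protein that coats single-stranded DNA. Rpa2 had 199, 181 and 200.4 in knockdown cells with TGF-β and 221, 214 and 219.6 with vehicle, against 541, 472 and 548 in scramble cells with TGF-β and 261, 277 and 323 with vehicle. TGF-β samples lay well above vehicle samples in scramble cells (log2 fold change 0.86) and slightly below them in knockdown cells, where the change did not pass (−0.17), with a difference of −1.03 (SE 0.13, adjusted p = 0.00449). Rpa1 and Lig1, the ligase that joins Okazaki fragments, fell with TGF-β in knockdown cells and are given with the genes of opposite response. Left-out samples raised the adjusted p to at most 0.0161 for Pcna (without scramble TGF-β replicate 2) and 0.0178 for Rpa2 (without scramble TGF-β replicate 1).

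Genes of chromatin assembly and maintenance held 6 calls of 9, all lower, against 0.244% of all genes tested. Wdr76, a WD-repeat protein of damage and replication sites, gave the smallest p of the lower genes, with counts of 158, 151 and 161 in knockdown cells with TGF-β and 187, 182 and 173 with vehicle, against 479, 462 and 544 in scramble cells with TGF-β and 200.4, 206 and 235 with vehicle. All 3 scramble samples with TGF-β were far above every other sample. Its log2 fold change was −0.20 in knockdown and 1.21 in scramble cells, a difference of −1.41 (SE 0.14, adjusted p = 0.00193), and it passed in all 12 fits that left out 1 sample and without the block (adjusted p = 0.00533). Hells, a chromatin remodeller needed for DNA methylation, had 305, 295 and 367 in knockdown cells with TGF-β and 300.1, 263 and 274 with vehicle, against 1244, 1457 and 1415 in scramble cells with TGF-β and 521, 547 and 706 with vehicle. Only the scramble groups were apart (difference of the responses −1.01, SE 0.15, adjusted p = 0.00739, or 0.0322 without scramble vehicle replicate 2).

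**Figure D2:**
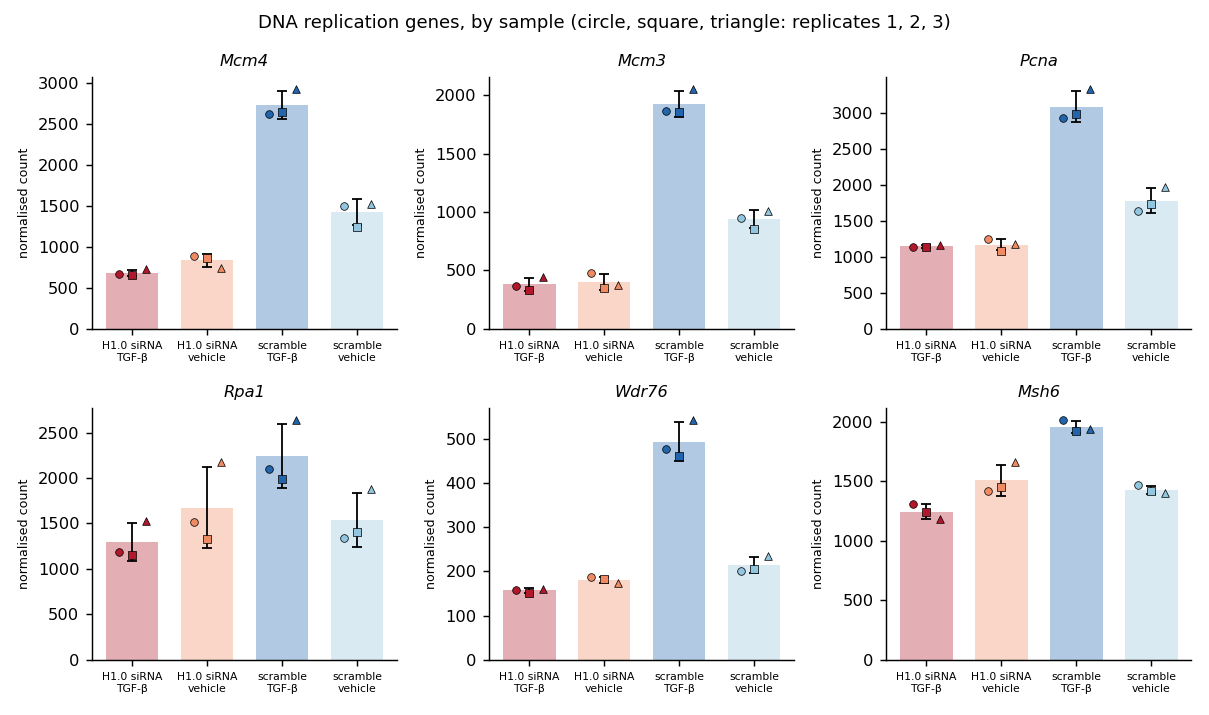
Normalised counts of 6 DNA replication and repair genes in the 12 samples. Bars are means, error bars SD (n = 3) and points the samples, with the groups in the order H1.0 siRNA with TGF-β, H1.0 siRNA with vehicle, scramble with TGF-β and scramble with vehicle. In each panel scramble cells with TGF-β have the highest mean, with samples from 1856 to 2053 for Mcm3, for example, against 333.2 to 444.3 in knockdown cells with TGF-β.

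E2F transcription factors drive S phase genes, so the promoters of the lower genes were searched for 8-letter E2F forms (TTTCCCGC, TTTCGCGC, TTTGGCGC or TTTGCCGC, on either strand). A RefSeq promoter window of 300 bases (GRCm38.p6) could be matched for 31 of the 44 lower and 49 of the 74 higher genes. The forms occurred in 6 of the 31 lower genes (19.4%), in none of the 49 higher genes and in 479 of 12612 promoters of tested genes (3.8%). In the S phase list as a whole they occurred in 18 of 63 promoters (28.6%). Of the lower genes in that list, 4 of 13 promoters held a form (30.8%). The promoters of Wdr76, Pcna, Rpa1, Rpa2, Lig1 and Mcm2 held none. The 3 windows below belong to named genes of the lower group and were picked because they hold a match. They are printed 5′ to 3′ on the gene's strand, with the E2F letters in capitals.
Mcm3, chr1:20820263-20820562, minus strand: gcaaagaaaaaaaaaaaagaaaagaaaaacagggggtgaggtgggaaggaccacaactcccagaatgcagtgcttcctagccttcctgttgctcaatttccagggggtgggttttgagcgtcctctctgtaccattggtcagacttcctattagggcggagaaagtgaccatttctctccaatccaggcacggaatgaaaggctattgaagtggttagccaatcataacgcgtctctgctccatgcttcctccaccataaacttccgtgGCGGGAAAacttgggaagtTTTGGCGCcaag
Msh6, chr17:87974800-87975099, plus strand: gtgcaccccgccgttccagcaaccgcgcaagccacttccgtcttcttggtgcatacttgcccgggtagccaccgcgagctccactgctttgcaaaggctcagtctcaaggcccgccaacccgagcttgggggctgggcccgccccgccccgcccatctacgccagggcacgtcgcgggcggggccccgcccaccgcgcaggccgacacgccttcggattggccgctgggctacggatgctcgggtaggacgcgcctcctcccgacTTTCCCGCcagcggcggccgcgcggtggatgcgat
Hells, chr19:38930740-38931039, plus strand: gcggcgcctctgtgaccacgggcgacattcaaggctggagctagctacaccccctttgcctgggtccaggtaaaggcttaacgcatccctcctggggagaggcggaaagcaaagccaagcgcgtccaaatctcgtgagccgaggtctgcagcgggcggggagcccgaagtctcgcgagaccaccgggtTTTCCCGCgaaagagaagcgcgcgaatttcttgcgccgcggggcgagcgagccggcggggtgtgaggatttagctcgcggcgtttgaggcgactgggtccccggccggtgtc
Mcm3 carried 2 matches and the others 1 each. The TTTGAA element of cell cycle genes was found in 5 of the 31 lower promoters (16.1%) and 13% of all, 1644 of 12612, and TGANTCA, the AP-1 form, in 1 of 31 lower, 1 of 49 higher and 5.45% of all. ACATTCC, bound by TEAD factors, was in none of the lower, 4 of the 49 higher (8.16%) and 2.78% of all promoters. The SMAD forms GTCTAGAC and CAGACAGA were in 1 of the lower, 1 of the higher and 2.04% of all, and the CArG box of SRF in none of the lower, 2 of the higher and 1.32% of all. Overlapping matches of different motifs were each counted under their own name.

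All 43 mitosis genes had a log2 difference below 0 (median −0.80) and none passed, with 38 at an unadjusted p under 0.05. The number that passed, all lower, was 13 with DESeq2 with the block and 12 without replicate 3 of every group. It was 6 without H1.0 siRNA vehicle replicate 3, 1 without scramble vehicle replicate 3 and 0 in the other fits that left out 1 sample. Without replicate 1 or without replicate 2 of every group, with limma-voom, and with edgeR without the block it was also 0. TGF-β raised none and lowered 5 of the 43 in knockdown cells, where 14.2% of all genes tested were raised and 12.6% lowered. In scramble cells it raised 7 and lowered 2, against 15.4% and 13% of all genes. The siRNA lowered 41 and raised 1 with TGF-β (median −1.99), and lowered 37 and raised 1 with vehicle (median −1.17). Over all genes the siRNA lowered 16% and raised 17.6% with TGF-β, and lowered 16.2% and raised 17.4% with vehicle. Of 26 regulators of the G1 to S transition, with a median of −0.22, only Ccnd1 passed. Ccnd1, the cyclin that starts the cycle with CDK4 and CDK6, had counts of 1117, 816 and 1263 in knockdown cells with TGF-β and 3653, 2802 and 4729 with vehicle, against 2017, 1783 and 2708 in scramble cells with TGF-β and 4199.8, 3397 and 5749 with vehicle. TGF-β samples were below vehicle samples in both arms. The fall was larger in knockdown cells, −1.80 on the log2 scale, than in scramble cells, −1.03 (difference −0.77, SE 0.09, adjusted p = 0.00347, or 0.0155 without scramble TGF-β replicate 2). It was the only one of the 44 lower genes that TGF-β changed in the same direction in both arms with a larger change after knockdown.

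Of the 7 linker histone genes none passed (median −0.36), and the 2 core histone genes that did are members of families of near-identical copies, whose reads the quantification may have divided. Hist1h2ak had counts of 78.4, 74 and 79.2 in knockdown cells with TGF-β and 102, 85.2 and 88.7 with vehicle, against 377, 369.5 and 361 in scramble cells with TGF-β and 197, 177 and 226 with vehicle. It was highest in scramble cells with TGF-β (difference of the responses −1.14, SE 0.16, adjusted p = 0.00689, or 0.0297 without scramble vehicle replicate 2), and the value is uncertain for the reason given.

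Outside the cell cycle, several of the lower genes with wide differences encode receptors and signals. Mcam, an adhesion molecule of pericytes and endothelium, had counts of 274, 308 and 237 in knockdown cells with TGF-β and 136, 94.7 and 90.2 with vehicle, against 2956, 2923 and 3027 in scramble cells with TGF-β and 262, 448 and 296 with vehicle. TGF-β raised it in both arms with no overlap, by 1.35 in knockdown cells and 3.17 in scramble cells on the log2 scale, a difference of −1.82 (SE 0.25, adjusted p = 0.006). Summed counts of 10 pericyte and smooth muscle markers, Mcam among them, were 3715 to 5488 in knockdown cells with TGF-β and 2425 to 3460.2 with vehicle, against 13509 to 17298 in scramble cells with TGF-β and 5796 to 9567 with vehicle, and Mcam was the only one of the 10 to pass. The part of such cells in its value was not tested. Flt4, the receptor of lymphatic growth factors VEGF-C and VEGF-D, had 103, 142 and 144 in knockdown cells with TGF-β and 93.3, 102 and 104 with vehicle, against 462, 430.2 and 654 in scramble cells with TGF-β and 132, 149 and 158 with vehicle. Scramble samples with TGF-β stood alone (difference −1.43, SE 0.19, adjusted p = 0.00556). No marker of the endothelial list passed the interaction test, Pecam1 and Cdh5 included.

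Wnt16, a secreted WNT ligand, had counts of 5.43, 12.3 and 14.8 in knockdown cells with TGF-β and 12.4, 13 and 26.6 with vehicle, against 206, 165 and 209 in scramble cells with TGF-β and 34.9, 36 and 73.7 with vehicle. It was scarce in every knockdown sample, and TGF-β raised it in scramble cells only (difference −2.76, SE 0.43, adjusted p = 0.00856). Boc, a co-receptor of hedgehog ligands, had 1486, 1961 and 1070.3 in knockdown cells with TGF-β and 1739, 2614 and 1284 with vehicle, against 3101, 3467 and 2405 in scramble cells with TGF-β and 1561, 2364 and 1237 with vehicle. Replicate 2 was the highest in every group, and within each number the TGF-β sample was the lower in knockdown cells and the higher in scramble cells (difference −1.14, SE 0.12, adjusted p = 0.00256, 0.329 without the block). Boc kept its call in all 12 fits that left out 1 sample. Adarb1, an enzyme that edits adenosine to inosine in RNA, had 2297, 2233 and 1961 in knockdown cells with TGF-β and 1970.3, 1668 and 2139 with vehicle, against 5221, 4834 and 4570.2 in scramble cells with TGF-β and 1789, 2303 and 2071 with vehicle. All scramble samples with TGF-β were above all others (difference −1.08, SE 0.16, adjusted p = 0.00766). Left-out samples raised the adjusted p to at most 0.02 for Mcam (without scramble TGF-β replicate 1), 0.0218 for Flt4 and 0.0322 for Wnt16 (both without scramble vehicle replicate 2) and 0.0293 for Adarb1 (without scramble TGF-β replicate 2).

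Lars2 and Nptxr were among the lower genes whose response passed in knockdown cells only. Lars2, the mitochondrial leucyl-tRNA synthetase, had 14536, 16562 and 16165 in knockdown cells with TGF-β and 33337, 34407 and 44665 with vehicle, against 23178, 17259.5 and 26316 in scramble cells with TGF-β and 25079, 16153 and 23367 with vehicle. Knockdown cells with vehicle were the highest samples and those with TGF-β were near or below the lowest scramble samples (difference −1.28, SE 0.20, adjusted p = 0.00925). The mouse transcript holds a stretch that resembles ribosomal RNA, so its counts are uncertain. Nptxr, a neuronal pentraxin receptor, fell by 1.04 in knockdown cells against a log2 change of 0.01 in scramble cells (difference −1.04, SE 0.16, adjusted p = 0.00952). Pgp, the phosphoglycolate phosphatase, rose in both arms, by 0.35 in knockdown and 0.95 in scramble cells (difference −0.61, SE 0.08, adjusted p = 0.00576). The calls of Lars2 and Nptxr were lost without scramble vehicle replicate 2 (adjusted p = 0.0322 and 0.0404), and that of Pgp without H1.0 siRNA vehicle replicate 1 (adjusted p = 0.0273).

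Genes of the myofibroblast and its matrix stood among the 74 higher genes, most of which started from a lower level after the siRNA: with vehicle the siRNA lowered 59 of the 74 and raised 1 (median log2 change −0.90), although these samples also enter the interaction. Of 33 myofibroblast genes tested 2 passed, both higher, and the median log2 difference was 0.30, and of 39 TGF-β and SMAD targets 4 passed, all higher, with a median of 0.20, where 0.41% of all genes tested passed as higher. Without the block 1 myofibroblast gene and none of the SMAD targets passed (edgeR), and with DESeq2 and the block 6 and 8. Leaving out scramble TGF-β replicate 2 or 3 gave 0 in both lists, and scramble vehicle replicate 3 gave 5 in both. In the other 9 fits without 1 sample from 1 to 3 myofibroblast genes and from 0 to 2 SMAD targets passed, and SMAD targets were at 0 without scramble vehicle replicate 1 or 2, scramble TGF-β replicate 1 or H1.0 siRNA vehicle replicate 2. TGF-β raised 27 of the 33 myofibroblast genes in knockdown cells and 22 in scramble cells, against 14.2% and 15.4% of all genes tested. It lowered 2 and 1 of them, against 12.6% and 13% of all genes. With TGF-β the siRNA lowered 21 of the 33 and raised 5 (median −0.65). With vehicle it lowered 24 and raised 3 (median −1.04). Over all genes tested it lowered 16% and raised 17.6% with TGF-β, and lowered 16.2% and raised 17.4% with vehicle. Tagln (transgelin, chr9:45929619-45936058), an actin-binding protein of smooth muscle and myofibroblasts, had counts of 14500.3, 16146 and 19546 in knockdown cells with TGF-β and 1108, 1400.4 and 970.2 with vehicle, against 46126, 45603 and 46688 in scramble cells with TGF-β and 10615, 12937 and 16761 with vehicle. Knockdown cells with TGF-β overlapped scramble cells with vehicle, and the other groups stood apart from each other. TGF-β raised Tagln by 3.84 on the log2 scale in knockdown cells and by 1.80 in scramble cells, a difference of 2.05 (SE 0.22, adjusted p = 0.00208, or 0.00873 without the block). In counts the order was the reverse: the rise was of 15571 counts in knockdown cells and 32701 in scramble cells. The siRNA changed Tagln by −1.48 on the log2 scale with TGF-β and by −3.52 with vehicle, and passed in both.

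Col11a1, a fibrillar collagen chain, had 5028, 5878 and 6880.3 in knockdown cells with TGF-β and 921, 1107 and 887 with vehicle, against 15267, 16333 and 21961 in scramble cells with TGF-β and 8920.1, 7494 and 8503 with vehicle. Every knockdown sample was below every scramble sample, the TGF-β-treated ones included, and yet its log2 response was larger by 1.51 (SE 0.19, adjusted p = 0.00447). It was the only collagen of 22 to pass. Thbs1, a matricellular protein that activates latent TGF-β, had 134144, 173025 and 280877 in knockdown cells with TGF-β and 18472, 29172 and 31811 with vehicle, against 181518, 245050.0 and 291269 in scramble cells with TGF-β and 85786, 115971 and 87920.0 with vehicle. With TGF-β knockdown and scramble samples overlapped, and with vehicle knockdown samples were the lower by far, and the response was larger in knockdown cells by 1.60 (SE 0.24, adjusted p = 0.00787). Ccn2, the connective tissue growth factor and a target of both SMAD and YAP factors, had 74873, 65898 and 92352 in knockdown cells with TGF-β and 19288, 17027 and 18462 with vehicle, against 80086, 74619.9 and 101336 in scramble cells with TGF-β and 36659.7, 38834 and 40369 with vehicle. The pattern was that of Thbs1 (difference 0.95, SE 0.13, adjusted p = 0.00643), and the siRNA effect was −0.14 with TGF-β and −1.08 with vehicle. Left-out samples raised the adjusted p to at most 0.013 for Tagln, 0.0192 for Col11a1 and 0.0293 for Ccn2 (all without scramble TGF-β replicate 2) and 0.0322 for Thbs1 (without scramble vehicle replicate 2).

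**Figure D3:**
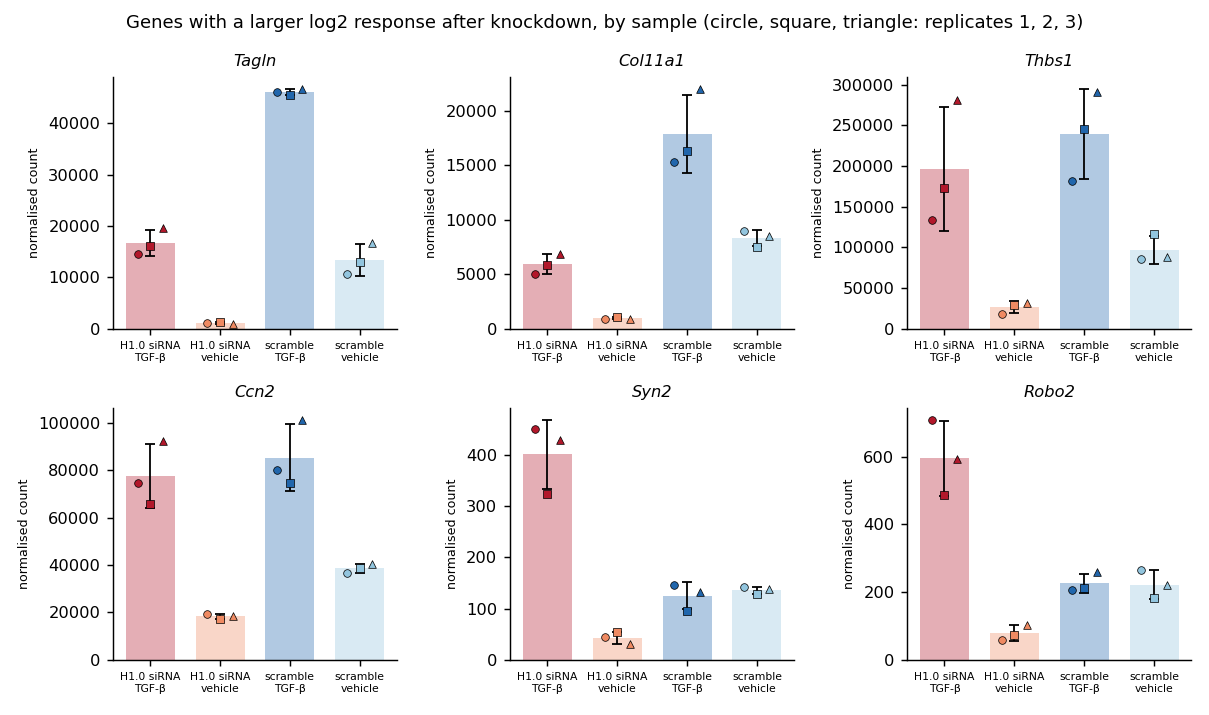
Normalised counts of 6 genes with a larger log2 response after knockdown in the 12 samples, with means (bars), SD (error bars, n = 3) and samples (points). In Tagln and Col11a1 knockdown cells with TGF-β stay far below scramble cells with TGF-β, in Thbs1 and Ccn2 they overlap, and in Syn2 and Robo2 they are the highest group, from 324.7 to 450.8 for Syn2 against 95.1 to 147 in scramble cells with TGF-β.

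Among genes that the study itself followed, Acta2 was near the threshold. Acta2, the actin of stress fibres, had 29622, 33981 and 26311 in knockdown cells with TGF-β and 5442, 5927 and 4629.9 with vehicle, against 109336, 109273 and 93652 in scramble cells with TGF-β and 27338, 31092 and 34597 with vehicle. Knockdown cells with TGF-β overlapped scramble cells with vehicle, as for Tagln. In counts Acta2 rose by 24638 in knockdown cells and by 73078 in scramble cells. The siRNA changed it by −1.80 on the log2 scale with TGF-β and by −2.55 with vehicle. The log2 difference of the responses was 0.75 (SE 0.15, adjusted p = 0.0296), the reverse of the order in counts. It passed with DESeq2, with the block (adjusted p = 0.00026) or without it, and with edgeR without scramble vehicle replicate 3 (adjusted p = 0.00991) or without replicate 3 of every group, while its other adjusted p-values without 1 sample went up to 0.0896. Postn, a matricellular protein of activated fibroblasts, had 52230.3, 52838 and 57511 in knockdown cells with TGF-β and 13179.7, 14194 and 16637 with vehicle, against 95917, 91980.1 and 116377 in scramble cells with TGF-β and 16154, 20713 and 28476 with vehicle. TGF-β separated the samples in both arms, with a log2 difference of −0.35 (SE 0.15, adjusted p = 0.251). Thbs4 had a log2 difference of 0.56 (SE 0.38, adjusted p = 0.483). Its replicate numbers 1, 2 and 3 gave −0.04, −0.04 and 1.41, and its counts in knockdown cells with vehicle were low (11.2, 15.4 and 8.13). In counts Thbs4 rose by 346 in knockdown cells and 1035 in scramble cells, the reverse of the order of the log2 estimate. The RNA polymerase II subunits Polr2a, Polr2b, Polr2c and Polr2d had log2 differences from −0.20 to 0.09 (adjusted p from 0.188 to 0.639).

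Some genes of matrix crosslinking, actin and adhesion had smaller differences. Loxl1, which crosslinks elastin, rose with TGF-β by 0.97 in knockdown and 0.31 in scramble cells (difference 0.66, SE 0.11, adjusted p = 0.00988). Nexn, an actin-binding protein of the SRF target list, rose by 1.19 and 0.57 in the same order (difference 0.61, SE 0.09, adjusted p = 0.00827). Itga11, the α chain of a collagen receptor, had 11189.7, 11169 and 8543 in knockdown cells with TGF-β and 2651, 2558 and 2669 with vehicle, against 9418, 9505 and 7705 in scramble cells with TGF-β and 3902, 4750.5 and 3551 with vehicle. The TGF-β samples of both arms overlapped and the vehicle samples of knockdown cells were the lower (difference 0.83, SE 0.13, adjusted p = 0.00897). Nexn lost its call in each of the 12 fits that left out 1 sample, and Loxl1, Nexn and Itga11 had their weakest values without scramble TGF-β replicate 2 (adjusted p = 0.0437 for Loxl1, 0.0339 for Nexn and 0.0372 for Itga11).

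Of 20 matrix proteinases and inhibitors tested 3 passed, all higher (median 0.46), where 0.41% of all genes tested passed as higher. The number that passed as higher was 0 without the block and 8 with DESeq2 and the block, which also passed 1 as lower. It was from 0 to 4 in the fits that left out 1 sample. Adamts14, outside that list, passed as well. Adamts8, a secreted metalloproteinase, was nearly absent from knockdown cells with vehicle: it had 202, 123 and 177 in knockdown cells with TGF-β and 4.5, 4.74 and 13.3 with vehicle, against 121, 95.1 and 141 in scramble cells with TGF-β and 39.2, 33.5 and 45.4 with vehicle. The TGF-β samples of both arms overlapped, and the log2 response was larger in knockdown cells by 2.79 (SE 0.35, adjusted p = 0.00447), a value that rests on low vehicle counts. Adamts12, another metalloproteinase of the family, had 3564, 5304 and 5474 in knockdown cells with TGF-β and 472, 637 and 579.8 with vehicle, against 6289, 7312 and 6064 in scramble cells with TGF-β and 1571, 2436 and 1769 with vehicle. All knockdown samples with TGF-β were below all scramble samples with TGF-β, while the log2 difference was 1.29 (SE 0.16, adjusted p = 0.00411). Adamts14, which trims the amino end of procollagen, had 380.2, 271 and 964 in knockdown cells with TGF-β and 98.9, 79.3 and 223 with vehicle, against 147, 168 and 219 in scramble cells with TGF-β and 251, 259 and 348 with vehicle. TGF-β passed in knockdown cells only, and the samples spread widely, with replicate 3 the highest in every group (difference 2.64, SE 0.35, adjusted p = 0.00504). Mmp14, the membrane-bound collagenase, rose by 1.33 in knockdown and 0.83 in scramble cells (difference 0.50, SE 0.08, adjusted p = 0.00827) and lost its call in each of the 12 fits that left out 1 sample (at most 0.0374, without scramble TGF-β replicate 2). The adjusted p rose to at most 0.0175 for Adamts8 and 0.0213 for Adamts14 without scramble vehicle replicate 2, and 0.0184 for Adamts12 without scramble TGF-β replicate 2.

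Several genes of transcription factors and of stress stood among the 74 higher genes. Of 21 immediate early genes tested 2 passed, Egr1 and Egr3, both higher, where 0.41% of all genes tested passed as higher. In 9 of the 21 the log2 difference was below 0 (median 0.12). Egr1, an immediate early zinc finger factor, had 1448, 1295 and 1571 in knockdown cells with TGF-β and 491, 504 and 559.8 with vehicle, against 1057, 1034 and 1424 in scramble cells with TGF-β and 810.3, 818 and 1168 with vehicle. Vehicle samples of knockdown cells were the lowest, and in scramble cells the TGF-β and vehicle samples overlapped. The log2 fold change was 1.47 in knockdown and 0.33 in scramble cells (difference 1.14, SE 0.12, adjusted p = 0.00208). Egr3 of the same family differed by 1.53 (SE 0.24, adjusted p = 0.00986). Meox1, a homeobox factor linked to fibroblast activation in the mouse heart, had 1849.7, 1076 and 3712 in knockdown cells with TGF-β and 45, 41.4 and 71.7 with vehicle, against 1112, 925 and 2549 in scramble cells with TGF-β and 102, 112 and 200.2 with vehicle. This was among the strongest TGF-β responses of the 118 genes in both arms, 5.35 and 3.42 on the log2 scale in knockdown and scramble cells, with a difference of 1.93 (SE 0.26, adjusted p = 0.0052). Snai1, a repressor of epithelial genes, rose with TGF-β in knockdown cells (0.65) and had a fold change of −0.09 in scramble cells (difference 0.73, SE 0.11, adjusted p = 0.00827). Gadd45b, a stress gene that TGF-β induces, rose by 1.70 and 1.07 in knockdown and scramble cells (difference 0.62, SE 0.09, adjusted p = 0.00661). Without scramble TGF-β replicate 2 all 5 calls were lost, with adjusted p-values of 0.0129 for Egr1, 0.0354 for Egr3, 0.0205 for Meox1, 0.0349 for Snai1 and 0.0293 for Gadd45b.

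Secreted signals followed. Cx3cl1 (fractalkine), the chemokine that binds CX3CR1, had 4644, 3657 and 3602 in knockdown cells with TGF-β and 788, 662 and 565 with vehicle, against 6604, 5456 and 5472 in scramble cells with TGF-β and 2279.6, 2008 and 1592 with vehicle. The 4 groups did not overlap, and knockdown cells were the lower under each treatment (difference of the log2 responses 0.98, SE 0.10, adjusted p = 0.00193, kept in all 12 fits that left out 1 sample). Fgf9, a fibroblast growth factor, had 394, 643 and 325 in knockdown cells with TGF-β and 163, 273 and 118 with vehicle, against 318, 357 and 243 in scramble cells with TGF-β and 389.9, 521 and 274 with vehicle. In every replicate number TGF-β samples were above vehicle samples in knockdown cells and below them in scramble cells. The rise passed in knockdown cells (1.32) and the scramble value did not (−0.34, adjusted p = 0.0484), with a difference of 1.65 (SE 0.17, adjusted p = 0.00208, or 0.01002 without scramble vehicle replicate 2). Gdf6, a ligand of the BMP family, had fold changes of 1.03 in knockdown and 0.18 in scramble cells (difference 0.85, SE 0.12, adjusted p = 0.00643, or 0.0229 without scramble TGF-β replicate 2). Tfpi2, a secreted protease inhibitor, rose by 3.08 in knockdown and 1.42 in scramble cells (difference 1.67, SE 0.26, adjusted p = 0.00856, or 0.0336 without scramble vehicle replicate 2).

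Pcdh19, Gpr153, Syn2 and Robo2 had 4 of the 5 smallest p-values of the test. Syn2 (synapsin 2, chr6:115134902-115282006), a protein of synaptic vesicles, had 451, 325 and 429.5 in knockdown cells with TGF-β and 45, 53.3 and 29.6 with vehicle, against 147, 95.1 and 133 in scramble cells with TGF-β and 142, 128 and 138 with vehicle. Knockdown samples were the highest with TGF-β and the lowest with vehicle, and the scramble groups overlapped. TGF-β changed Syn2 by 3.26 on the log2 scale in knockdown and −0.12 in scramble cells, the widest difference of the higher genes at 3.38 (SE 0.28, adjusted p = 0.000941). Robo2, a receptor of SLIT guidance proteins, had the same shape: 708, 485 and 592 in knockdown cells with TGF-β and 57.3, 72.2 and 104 with vehicle, against 206, 211 and 259 in scramble cells with TGF-β and 265, 181 and 219.9 with vehicle (difference 2.89, SE 0.27, adjusted p = 0.00134). Pcdh19, a protocadherin, had 3476, 3611 and 4434 in knockdown cells with TGF-β and 833, 861 and 1033 with vehicle, against 1838, 2183 and 2329 in scramble cells with TGF-β and 893, 1023 and 1254 with vehicle. With vehicle the arms overlapped, and with TGF-β knockdown cells were the higher (difference 1.07, SE 0.08, adjusted p = 0.000941). Gpr153, an orphan receptor, had 3668, 3001 and 4688 in knockdown cells with TGF-β and 517, 521 and 737 with vehicle, against 2552, 2424 and 3074 in scramble cells with TGF-β and 1038, 1154 and 1291 with vehicle. It was the lower in knockdown cells with vehicle and overlapped with TGF-β (difference 1.47, SE 0.12, adjusted p = 0.000941). All 4 genes passed in each of the 12 fits that left out 1 sample, and without the block Syn2 (adjusted p = 0.00533) and Robo2 (0.00592) passed while Pcdh19 (0.0504) and Gpr153 (0.0395) did not.

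Camk2n1, an inhibitor of the kinase CaMKII, and Nr1h4, the bile acid receptor FXR, also rose with TGF-β in knockdown cells and did not pass in scramble cells. Camk2n1 had 1387, 1115 and 2565 in knockdown cells with TGF-β and 587, 439 and 804 with vehicle, against 427, 350.2 and 813 in scramble cells with TGF-β and 622, 559.7 and 669 with vehicle. With vehicle the arms overlapped, and with TGF-β all knockdown samples were above all scramble samples (difference 1.74, SE 0.22, adjusted p = 0.00449). Nr1h4 had 306, 177 and 469.9 in knockdown cells with TGF-β and 34.8, 30.8 and 132 with vehicle, against 64.7, 71.7 and 97.6 in scramble cells with TGF-β and 85, 68.3 and 133 with vehicle. Replicate 3 was the highest in each group, and the difference was 2.60 (SE 0.39, adjusted p = 0.00827). Slc17a9, a transporter of nucleotides into vesicles, rose in both arms, by 2.53 in knockdown and 0.89 in scramble cells (difference 1.64, SE 0.25, adjusted p = 0.00827). The adjusted p rose to at most 0.0209 for Camk2n1 (without scramble TGF-β replicate 2), 0.0322 for Nr1h4 and 0.0336 for Slc17a9 (without scramble vehicle replicate 2).

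The response had opposite directions in 11 genes, which passed in both arms. In 5 of them TGF-β lowered the gene in knockdown cells and raised it in scramble cells: Rpa1, Msh6, Lig1, Hist2h3c2 and Nup85. Rpa1 had 1189, 1154 and 1530.2 in knockdown cells with TGF-β and 1511, 1329 and 2175 with vehicle, against 2096, 1984 and 2639 in scramble cells with TGF-β and 1339, 1401 and 1878 with vehicle. Replicate 3 was the highest in every group, so that the ranges of the knockdown groups overlapped although the TGF-β sample was the lower in each number. The log2 fold change was −0.36 in knockdown cells (adjusted p = 0.00141) and 0.55 in scramble cells (adjusted p = 8.39e-05). Msh6, a mismatch repair protein, had 1308, 1241 and 1185 in knockdown cells with TGF-β and 1419.6, 1449 and 1661 with vehicle, against 2017, 1921 and 1942 in scramble cells with TGF-β and 1466, 1415 and 1404 with vehicle. No TGF-β and vehicle samples of an arm overlapped, and the fold changes were −0.28 in knockdown and 0.46 in scramble cells (difference −0.74, SE 0.10, adjusted p = 0.00449). Lig1 had fold changes of −0.37 and 0.52 in knockdown and scramble cells, and Nup85, a scaffold protein of the nuclear pore, −0.22 and 0.45. Hist2h3c2, with the uncertainty of histone copies, had −0.76 in knockdown and 0.68 in scramble cells.

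In the other 6, TGF-β raised the gene in knockdown cells and lowered it in scramble cells: Klf12, Dclk3, Dact1, Pear1, Ttc3 and Shroom3. Klf12, a zinc finger repressor, had 339.8, 315 and 324 in knockdown cells with TGF-β and 232, 264 and 259.6 with vehicle, against 448, 426 and 411 in scramble cells with TGF-β and 778, 639 and 706 with vehicle. All 4 groups were apart from each other. The fold change was 0.37 in knockdown cells (adjusted p = 0.00766) and −0.72 in scramble cells (adjusted p = 8.41e-05), a difference of 1.10 (SE 0.13, adjusted p = 0.00347, or 0.00791 without the block). Dact1, which binds Dishevelled in WNT signalling, had 981, 973 and 783 in knockdown cells with TGF-β and 805, 747 and 687 with vehicle, against 1833, 1504 and 1249.5 in scramble cells with TGF-β and 2344, 2079 and 1758 with vehicle. Each TGF-β sample was above the vehicle sample of its number in knockdown cells and below it in scramble cells (fold changes 0.28 and −0.44, difference 0.72, SE 0.09). Shroom3, a regulator of apical constriction, had fold changes of 0.60 in knockdown and −0.46 in scramble cells, Dclk3, a kinase of the doublecortin family, 0.35 and −0.60 in the same order, Pear1, a platelet receptor, 0.34 and −0.35, and Ttc3, a ubiquitin ligase, 0.24 and −0.25. The changes in both arms were small, and all 11 lost the interaction call in at least 1 fit that left out a sample. Without scramble TGF-β replicate 2 the adjusted p was 0.0129 for Rpa1, 0.0161 for Nup85, 0.0205 for Msh6, 0.026 for Lig1, 0.0155 for Klf12, 0.0168 for Dclk3 and 0.0229 for Dact1. Without scramble vehicle replicate 2 it was 0.0288 for Pear1, 0.0322 for Hist2h3c2 and 0.0322 for Ttc3, and without H1.0 siRNA vehicle replicate 1 0.0306 for Shroom3.

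**Figure D4:**
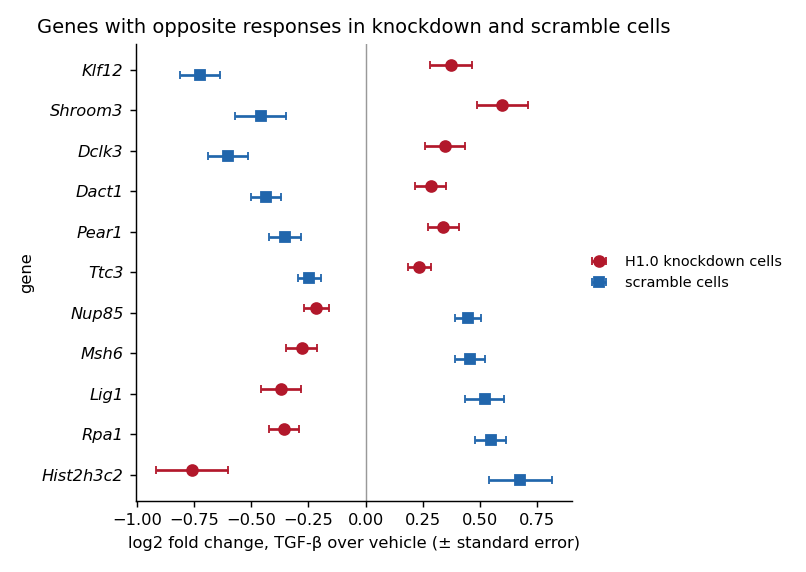
Log2 fold change of TGF-β over vehicle in H1.0 knockdown cells (circles) and in scramble cells (squares) for the 11 genes that passed in both arms in opposite directions, with standard errors of the fit as bars. The 6 upper genes are above 0 in knockdown cells and below 0 in scramble cells, and the 5 lower genes the reverse, with Hist2h3c2 the widest apart at −0.76 and 0.68.

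A further set was lowered by TGF-β in scramble cells and less or not at all in knockdown cells. Rapgef3 (EPAC1), the exchange factor through which cyclic AMP activates RAP proteins, had 707, 743 and 670.3 in knockdown cells with TGF-β and 837, 804 and 795 with vehicle, against 486, 447 and 422 in scramble cells with TGF-β and 1004, 988 and 964 with vehicle. The scramble samples with TGF-β were the lowest 3 of the 12 and those with vehicle the highest 3. The fold change was −0.20 in knockdown cells (adjusted p = 0.0166) and −1.13 in scramble cells, a difference of 0.93 (SE 0.08, adjusted p = 0.00134, or 0.00533 without the block), and it passed in all 12 fits that left out 1 sample. C1qtnf7, a secreted C1q and TNF related protein, had 265, 396 and 162 in knockdown cells with TGF-β and 411, 606 and 325 with vehicle, against 230.5, 336 and 152 in scramble cells with TGF-β and 851, 1217 and 597 with vehicle. Replicate 2 was the highest in each group, and TGF-β lowered the gene by 0.75 in knockdown and 1.90 in scramble cells (difference 1.15, SE 0.12, adjusted p = 0.00208, 0.417 without the block). Klhl24, a ubiquitin ligase adaptor that acts on keratin in skin, had 3259, 3199 and 3411 in knockdown cells with TGF-β and 4227, 4468 and 5198 with vehicle, against 1797, 1772 and 1920.2 in scramble cells with TGF-β and 4065, 4018 and 4327 with vehicle. All TGF-β samples were below all vehicle samples, and the scramble samples with TGF-β were the lowest (difference 0.69, SE 0.08, adjusted p = 0.00291). Tmem204, a membrane protein of endothelium, had a log2 change of −0.09 in knockdown cells and fell by 1.58 in scramble cells (difference 1.49, SE 0.23, adjusted p = 0.00856). Without scramble TGF-β replicate 2 the adjusted p was 0.0129 for C1qtnf7, 0.0155 for Klhl24 and 0.0317 for Tmem204.

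Whether a response counts as larger depends on the scale. On the log2 scale a response is a ratio, and on the scale of counts it is the number of transcripts gained or lost. For 111 of the 118 genes the difference of differences in mean normalised counts had the same sign as the log2 difference. For 7 of the 74 higher genes, all raised by TGF-β in both arms, it had the opposite sign, and 5 of these are named here: Tagln, Col11a1, Cx3cl1, Adamts12 and Gadd45b. The difference in counts was −17130.1 for Tagln, −4591 for Col11a1, −588.3 for Cx3cl1, −412.2 for Adamts12 and −336 for Gadd45b. Among the rest, Thbs1 (26809), Ccn2 (12722) and Mmp14 (4264) had the widest differences in counts of the named genes with a higher response. All 44 lower genes kept their sign on the scale of counts, from −22434 for Lars2 to −61.2.

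**Figure D5:**
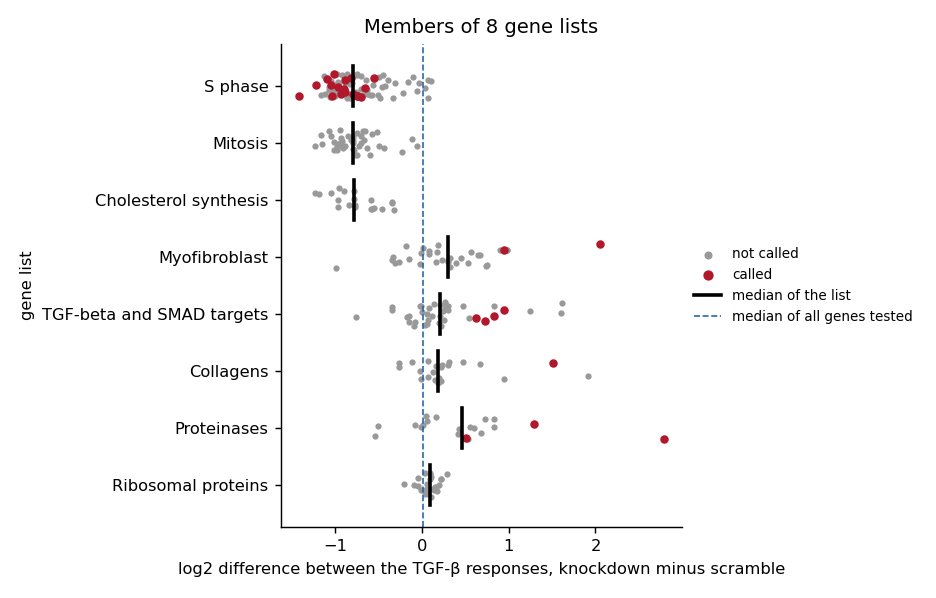
Log2 difference between the TGF-β responses (knockdown minus scramble) of the tested members of 8 gene lists, 1 point per gene, with genes that passed in red, the list median as a black bar and the median of all 18028 genes tested (0.02) as a dashed line. S phase, mitosis and cholesterol synthesis genes lie almost entirely below 0 (medians −0.79, −0.80 and −0.78) and myofibroblast genes and proteinases lean above it (0.30 and 0.46).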

How the data were processed

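Ribosomal RNA-depleted RNA was sequenced as paired ends from 12 cultures of mouse cardiac fibroblasts, 3 in each of 4 groups. Per the labels and the study's methods, the authors ran Salmon against an mm10 index of Ensembl transcripts and deposited, for each sample, estimated counts per transcript, with effective length and TPM (TPM was not used). Estimated counts were summed per gene with the GENCODE M21 annotation of GRCm38 (115973 of 117135 transcripts matched, 99.5 to 99.6% of reads; the rest were not used) and rounded to whole numbers. Totals were 19.9 to 36.3 M reads, and intervals from them cover counting error only.

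Genes with at least 10 counts summed over the 12 samples (18028 genes) were tested with edgeR 4.0.16 in R 4.3.3 (TMM, quasi-likelihood F test, replicate number as a block, Benjamini-Hochberg adjusted p under 0.01 over all genes). The count minimum and the threshold follow the study's methods, which used DESeq2. Standard errors are the log2 difference divided by the square root of F. Normalised counts are TMM-scaled CPM times the mean total. The fit was tested on simulated data, which held no difference between replicate numbers and so could not test the block. The block was part of the comparison as defined; the labels do not say what a number marks. Over 11453 genes, deviations from group means correlated by 0.080 to 0.593 in 18 same-numbered pairs (17 of them over 0.1, the lowest between the replicate 1 samples with vehicle). In 36 other pairs they correlated by −0.559 to 0.289. Each of the 12 samples had its highest mean correlation with the samples of its own number. Deviations cancel within a group, so the values of same-numbered and other pairs are not independent.

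The members and the 42 gene lists were chosen with earlier results of these data known. Named genes are, of those called: the 15 with the widest log2 difference in each direction with a mean of at least 100 in their highest group, those of opposite direction, up to 4 per list and direction, the 3 with the lowest p in each pattern, and genes the study followed, some of which are not reported here. Alternatives were the fit without the block, limma 3.58.1 (voom), DESeq2 1.42.0, other size factors, a length offset, other filters, thinned totals, another threshold and samples left out. Promoters are RefSeq windows matched by symbol, or by a synonym that no other gene carries as its symbol. Tables were made with Python 3.11.15 and pandas 2.3.3.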

Additional observations from a re-analysis of the deposited data

Results flagged for a closer look

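The TGF-β response differed between H1.0 knockdown and scramble cells in 118 genes by the test of the difference itself, edgeR's quasi-likelihood test of the interaction. In 11 of them the response passed in both arms with opposite signs. The log2 differences (knockdown minus scramble) were −0.90 for Rpa1, −0.66 for Nup85, −0.74 for Msh6, −0.89 for Lig1 and −1.43 for Hist2h3c2, and 1.10 for Klf12, 0.95 for Dclk3, 0.72 for Dact1, 0.69 for Pear1, 0.48 for Ttc3 and 1.06 for Shroom3.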

How the results depend on the processing

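All 118 genes kept the sign of their log2 difference in every alternative, while the number of calls moved. The alternatives reuse the samples that gave the calls, so the kept sign is no separate evidence. Without the replicate block 8 genes passed (6 higher, 2 lower), all among the 118, and with limma-voom or DESeq2 without the block, both added after seeing the data, 4 (2 and 2) and 239 (110 and 129). With the block, DESeq2 passed 590 (298 higher, 292 lower), a length offset 44 (32 and 12), no filter on low counts 199 (124 and 75) and an adjusted p under 0.05 gave 608 (316 and 292). Fits without 1 sample or without 1 replicate number ranged from 0 to 331 genes, 0 to 168 higher and 0 to 163 lower: 0 without replicate 1 and 0 without replicate 2 (edgeR, with 2065 and 1985 genes at an unadjusted p under 0.05), and 331 without replicate 3. The cause was not tested. Limma-voom with the block (136), other size factors (113 and 118), edgeR's own filter (109) and thinned totals (138) stayed within 1.5 times the count. Whether smaller differences exist in the genes not called cannot be read from these counts at 3 samples a group.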

Other observations

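Cholesterol synthesis genes, described in no comparison above, all had a log2 difference below 0 (20 genes, median −0.78) and none passed, with 12 at an unadjusted p under 0.05. The number that passed, all lower, was 1 with DESeq2 with the block, 6 without scramble vehicle replicate 3 and 16 without replicate 3 of every group. It was 0 in the other alternatives, those without replicate 1 or without replicate 2 of every group included. TGF-β raised 2 of the 20 in knockdown cells and 13 in scramble cells, against 14.2% and 15.4% of all genes tested. With vehicle the siRNA raised 13 and lowered none, against 17.4% and 16.2% of all genes. With TGF-β the siRNA raised 4 and lowered 1, against 17.6% and 16%. The list median lay between −1.14 and −0.57 over 26 alternatives. Interferon-stimulated genes had estimates below 0 in 24 of 26 (median −0.28) with no call and 2 at an unadjusted p under 0.05. TGF-β lowered 16 of the 26 in knockdown cells and 6 in scramble cells, against 12.6% and 13% of all genes tested, and raised none. The siRNA lowered 16 with TGF-β and 7 with vehicle, against 16% and 16.2% of all genes, and raised none. The 26 ribosomal protein genes had a median of 0.09 and no call.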
